A study of Mus musculus with 53 samples.

Results

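The liver takes apart most of the amino acids that reach it from the gut and turns the freed nitrogen into urea. The 50 genes described here encode enzymes and carriers of that work. They are listed by gene name and take in the urea cycle and the breakdown of tyrosine, tryptophan, histidine, methionine, the branched-chain amino acids, serine, glycine, proline and lysine. All 50 symbols were found in each of the 3 deposited count tables, which hold 38293, 38293 and 53379 genes, with 36410 genes in all 3. All 50 also passed the filter on low counts in each experiment.

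The data cover 53 liver samples from male C57BL/6J mice, each sequenced as 1 RNA library, in 3 experiments that challenged the liver with diet, with a toxin or by surgery. Knockout animals were labelled as lacking Bmp8b, a signalling protein of the BMP family, and wild-type animals were their littermates. In the diet experiment 7 labelled knockout and 7 wild-type mice ate Western diet, and 9 wild-type mice ate a low-fat control diet, for 32 weeks at a labelled age of 9 weeks. In the toxin experiment 6 labelled knockout and 4 wild-type mice aged 16 weeks received an injection into the abdomen of carbon tetrachloride (CCl4), which liver cells turn into a toxic radical, mixed with an equal volume of olive oil. A further 6 wild-type mice received olive oil alone, all at 2 µl per g body weight, and livers were taken 3 days later. In the surgical experiment 4 labelled knockout and 5 wild-type livers of mice aged 16 weeks were taken 3 days after partial hepatectomy, in which part of the liver is cut out and the rest grows back, and 5 wild-type samples of the liver cut out stand for day 0. The wild-type samples of both days carry the numbers 12 to 16, but the labels do not say that a number marks 1 animal. No labelled knockout liver without a challenge was analysed here.

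Hepatocytes remove the amino group of amino acids by transamination or deamination, and the urea cycle joins the resulting ammonia with bicarbonate and aspartate to make urea. The cycle and the deaminating enzymes are concentrated in the periportal hepatocytes, where portal blood enters the lobule, while glutamine synthesis is confined to the hepatocytes around the central vein. Glucagon, glucocorticoids and dietary protein are known to raise many of these enzymes, among them tyrosine aminotransferase and serine dehydratase.

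Library totals were 8963187 to 15196537 counts in the diet experiment, 2661699 to 6364414 in the toxin experiment and 2450358 to 6914274 in the surgical experiment. The 50 genes took 1.80% to 3.25%, 1.72% to 5.94% and 2.21% to 3.24% of these counts. Bmp8b itself had 4 to 9 counts in labelled knockout livers and 1 to 5 in wild-type livers at day 3 of hepatectomy, and 6 to 33 against 7 to 30 on Western diet. After CCl4 it had 1 to 15 counts in labelled knockout livers and 0 to 10 in wild-type livers. Counts summed over a gene carry no information on its exons, so the label was not checked by them. Levels below are counts scaled to a normalized library total (CPM), and a gene is said to have risen, fallen or been called where its Benjamini-Hochberg adjusted p in edgeR was under 0.05 over all genes tested. In bulk tissue, fewer cells of a type and less RNA per cell cannot be told apart.

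The control livers show which of these enzymes the normal liver made most RNA for, on a scale of CPM per kilobase of exon. On low-fat diet the highest was Mat1a, which makes S-adenosylmethionine, at 1002 ± 176 (mean ± SD, n = 9). Gnmt, the glycine methyltransferase that uses up that compound, stood at 954 ± 165 on the same scale and led at 1399 ± 495 after olive oil (n = 6) and 1302 ± 123 at day 0 of surgery (n = 5). Hpd, the hydroxyphenylpyruvate dioxygenase of tyrosine breakdown, and Cps1, the carbamoyl phosphate synthetase that brings ammonia into the urea cycle, followed with 928 ± 122 and 769 ± 119 CPM per kilobase on low-fat diet. Mat1a, Gnmt and Hpd differed there by less than the spread between livers. At the other end were Afmid, Mccc1 and Sdsl, with 9.35 ± 1.82, 6.56 ± 0.411 and 3.15 ± 1.16 CPM per kilobase on low-fat diet. The length used joins all annotated exons of a gene, so it affects this order. Mccc1, with 10952 bases, had 71.9 CPM, and Mccc2, with 2802 bases, had 70.9 CPM but 25.3 CPM per kilobase.

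**Figure D1:**
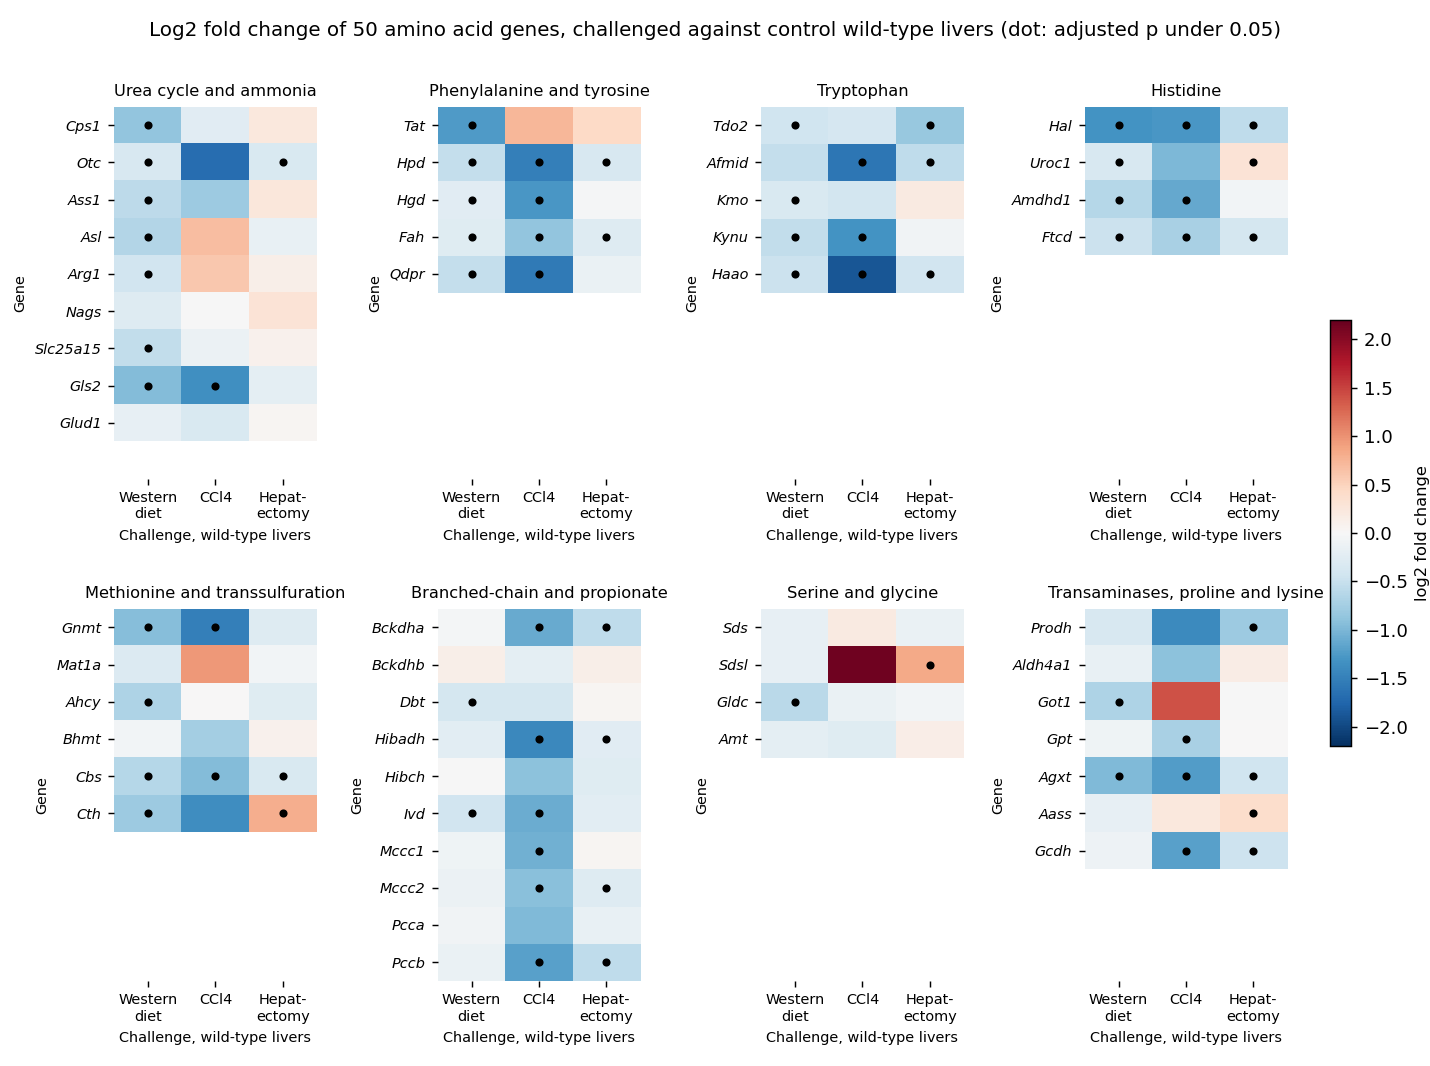
Log2 fold change of each of the 50 genes in challenged over control wild-type livers, by branch, for Western diet, CCl4 and hepatectomy. Red is higher and blue lower in the challenged livers, and a dot marks an adjusted p under 0.05. The dots number 29 for Western diet and 22 for CCl4, all of them on falls, and 20 for hepatectomy, of which 4 are rises.

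The amino acid genes were broadly lower in wild-type livers on Western diet. Of the 50 genes 29 fell and 0 rose by edgeR, against 17.0% of all 13005 genes tested that fell and 20.4% that rose. The median log2 fold change of the 50 was -0.37, against -0.02 over all genes, and 49 of the 50 had a negative value. Every liver on Western diet was below every liver on low-fat diet for 11 of the 50, a separation seen in 2.55% of all genes. DESeq2 and limma voom also called 0 genes higher, and 0 had an unadjusted p under 0.05 in that direction. Falls took up most genes of the urea cycle, aromatic, histidine and methionine branches, and 2 of 10 in the branch for leucine, isoleucine and valine.

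In the urea cycle and its supply of ammonia 7 of 9 genes fell, with a median log2 fold change of -0.54. Cps1 (chr1:67123026-67231259 in GRCm38) was at 1569 to 2936 CPM with a median of 2365 in the 7 wild-type livers on Western diet, against 3258 to 5113 CPM with a median of 4536 in the 9 on low-fat diet, a log2 fold change of -0.88 (SE 0.18, adjusted p = 0.000591). The groups did not overlap. Gls2, the liver glutaminase that frees ammonia from glutamine beside Cps1, reached 118 to 269 CPM with a median of 228 on Western diet and 344 to 474 CPM with a median of 406 on low-fat diet, a log2 fold change of -0.95 (SE 0.15, adjusted p = 5.05e-05). It too was lower in each of the 7 livers than in any of the 9.

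Asl, which splits argininosuccinate into arginine and fumarate, had 170.2 to 317 CPM with a median of 246 on Western diet, against 316 to 476 CPM with a median of 400.3 on low-fat diet, a log2 fold change of -0.65 (SE 0.14, adjusted p = 0.000846). Only the highest Western diet liver and the lowest low-fat liver overlapped. Ass1, Arg1 and the mitochondrial ornithine carrier Slc25a15 fell by 0.58, 0.43 and 0.54 on the log2 scale with no overlap between the groups, and Otc, which makes citrulline, fell by 0.34 with overlap. Reads of Ass1 may be shared with a near-identical copy, Gm5424. Nags, which makes the activator of Cps1, and the glutamate dehydrogenase Glud1 were not called, at log2 fold changes of -0.29 and -0.17.

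Among the aromatic amino acids 9 of 10 genes fell. Tat, the tyrosine aminotransferase that opens tyrosine breakdown, was at 449.7 to 785 CPM with a median of 573 on Western diet and 914 to 1659 CPM with a median of 1352 on low-fat diet, a log2 fold change of -1.25 (SE 0.19, adjusted p = 3.04e-05). No Western diet liver reached the lowest low-fat liver. The later tyrosine enzymes Hpd, Hgd and Fah fell less, with log2 fold changes of -0.52, -0.25 and -0.27, and their groups overlapped. Tdo2, the dioxygenase that opens the kynurenine pathway of tryptophan, had 741 to 1063 CPM with a median of 865 on Western diet, against 957 to 1509 CPM with a median of 1253 on low-fat diet, a log2 fold change of -0.43 (SE 0.12, adjusted p = 0.00749). The upper Western diet livers lay within the low-fat range.

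All 4 histidine genes fell, and Hal showed the largest fall of the 50. Hal encodes histidine ammonia-lyase, which removes ammonia from histidine. It was at 65.5 to 323 CPM with a median of 195 on Western diet, against 287 to 566 CPM with a median of 502.2 on low-fat diet, a log2 fold change of -1.32 (SE 0.27, adjusted p = 0.000497). Only Western diet liver 23 was within the low-fat range. Amdhd1, which acts later in the same pathway and lies next to Hal on chromosome 10, fell by 0.63 on the log2 scale without overlap, and Ftcd, which moves the formimino group left over from histidine to folate, fell by 0.47 without overlap.

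In methionine breakdown and transsulfuration, the route by which homocysteine becomes cysteine, 4 of 6 genes fell. Gnmt had 366 to 909.7 CPM with a median of 570.2 on Western diet and 839.5 to 1347 CPM with a median of 1225 on low-fat diet, a log2 fold change of -0.94 (SE 0.23, adjusted p = 0.00205), with some overlap. Cth, the cystathionine lyase that releases cysteine, had 129 to 228 CPM with a median of 166 on Western diet and 228 to 362 CPM with a median of 314 on low-fat diet, a log2 fold change of -0.80 (SE 0.16, adjusted p = 0.000495). The highest Western diet liver and the lowest low-fat liver were almost level, without crossing. Cbs, which makes cystathionine, fell by 0.62 on the log2 scale with no overlap. Ahcy, which hydrolyses S-adenosylhomocysteine, had a log2 fold change of -0.67 (SE 0.16, adjusted p = 0.00199), but its reads may be shared with the near-identical copies Gm4737 and Gm9826. Mat1a was not called, at 2346 to 3255 CPM with a median of 2889.7 on Western diet and 2655 to 4675 CPM with a median of 3430.1 on low-fat diet.

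The branched-chain and propionate branch had 2 falls among 10 genes and a median log2 fold change of -0.11. The 2 were Dbt, the core subunit of the branched-chain ketoacid dehydrogenase, and Ivd, the dehydrogenase of leucine breakdown, at -0.39 and -0.42. Bckdhb, another subunit of that dehydrogenase, was at 69.7 to 91.3 CPM with a median of 80.6 on Western diet, against 66.9 to 94.8 CPM with a median of 71.5 on low-fat diet, and was not called at a log2 fold change of 0.13 (SE 0.07, adjusted p = 0.157). It was the only one of the 50 with a positive value. With library totals unscaled, with upper quartile scaling, or without low-fat liver 21, it was called higher at log2 fold changes of 0.30, 0.18 and 0.17. With unscaled totals the median of all genes was 0.15, against -0.02 in the main fit.

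In the remaining branches Gldc, the decarboxylating subunit of the glycine cleavage system, was at 123 to 215 CPM with a median of 177 on Western diet and 193 to 326 CPM with a median of 274 on low-fat diet, a log2 fold change of -0.59 (SE 0.13, adjusted p = 0.000984). Agxt, which transaminates glyoxylate to glycine, had 81.9 to 163 CPM with a median of 119 on Western diet and 192 to 296 CPM with a median of 246 on low-fat diet, a log2 fold change of -0.97 (SE 0.18, adjusted p = 0.000163). Its groups did not overlap. Got1, the cytosolic aspartate aminotransferase, fell by 0.68 on the log2 scale (SE 0.20, adjusted p = 0.00895). Sds, the serine dehydratase, and Prodh and Aass, which open proline and lysine breakdown, were not called, with log2 fold changes of -0.19, -0.36 and -0.18.

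Within the sequencing index that the labels give each library, 33 of the 50 genes fell among the D501 livers, with a median log2 fold change of -0.64, against 11.5% of all genes tested in those livers. Among the D502 livers 17 fell, with a median of -0.22, against 3.84% of all genes. In the D502 livers Tdo2 and Gldc were not called, at -0.24 and -0.49. At a required fold above 1.5, 3 of the 50 fell, against 0.792% of all genes. Without Western diet wild-type livers 32 and 36, 34 fell, against 18.2% of all genes. Among the wild-type livers on Western diet these had the fewest genes below every low-fat liver, 20 and 16 of the 50. Leaving them out is therefore no independent check of the falls.

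Livers on Western diet differed among themselves. Liver 14 was below every low-fat liver for 46 of the 50 genes, and liver 36 for 16. Such counts per liver were made for the 50 genes only, so they do not show whether a liver differed in these genes more than in others. Markers of other cells moved with the diet. All 8 macrophage markers rose, with a summed level of 487 to 1162 CPM on Western diet and 172 to 456 CPM on low-fat diet, and 7 of 8 stellate cell and fibroblast markers rose, with 469 to 959.9 CPM against 257 to 388 CPM. Of 7 hepatocyte markers tested 5 fell, among them Alb, with a summed level of 59211 to 87768 CPM on Western diet and 90581 to 123402 CPM on low-fat diet. All 8 markers of dividing cells rose, with 15.7 to 49.1 CPM against 8.37 to 13.1 CPM. Their part in the fall of the amino acid genes was not tested.

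Other genes of amino acid use moved unevenly on Western diet. Of 34 further enzymes tested 12 fell and 2 rose (Gpt2 and Csad), of 10 amino acid transporters 4 fell and 1 rose, and of 9 regulators 2 fell. Slc38a2, a carrier of small neutral amino acids, had a log2 fold change of -0.67 (SE 0.11, adjusted p = 5.96e-05). Shmt1, which interconverts serine and glycine, had one of -0.58 (SE 0.10, adjusted p = 8.96e-05). Hnf4a, a nuclear receptor that maintains hepatocyte genes, was at 468 ± 21.6 CPM on Western diet (mean ± SD, n = 7) and 669 ± 111 CPM on low-fat diet (n = 9), a log2 fold change of -0.51 (SE 0.09, adjusted p = 0.000121). None of these 3 genes overlapped between the groups.

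**Figure D2:**
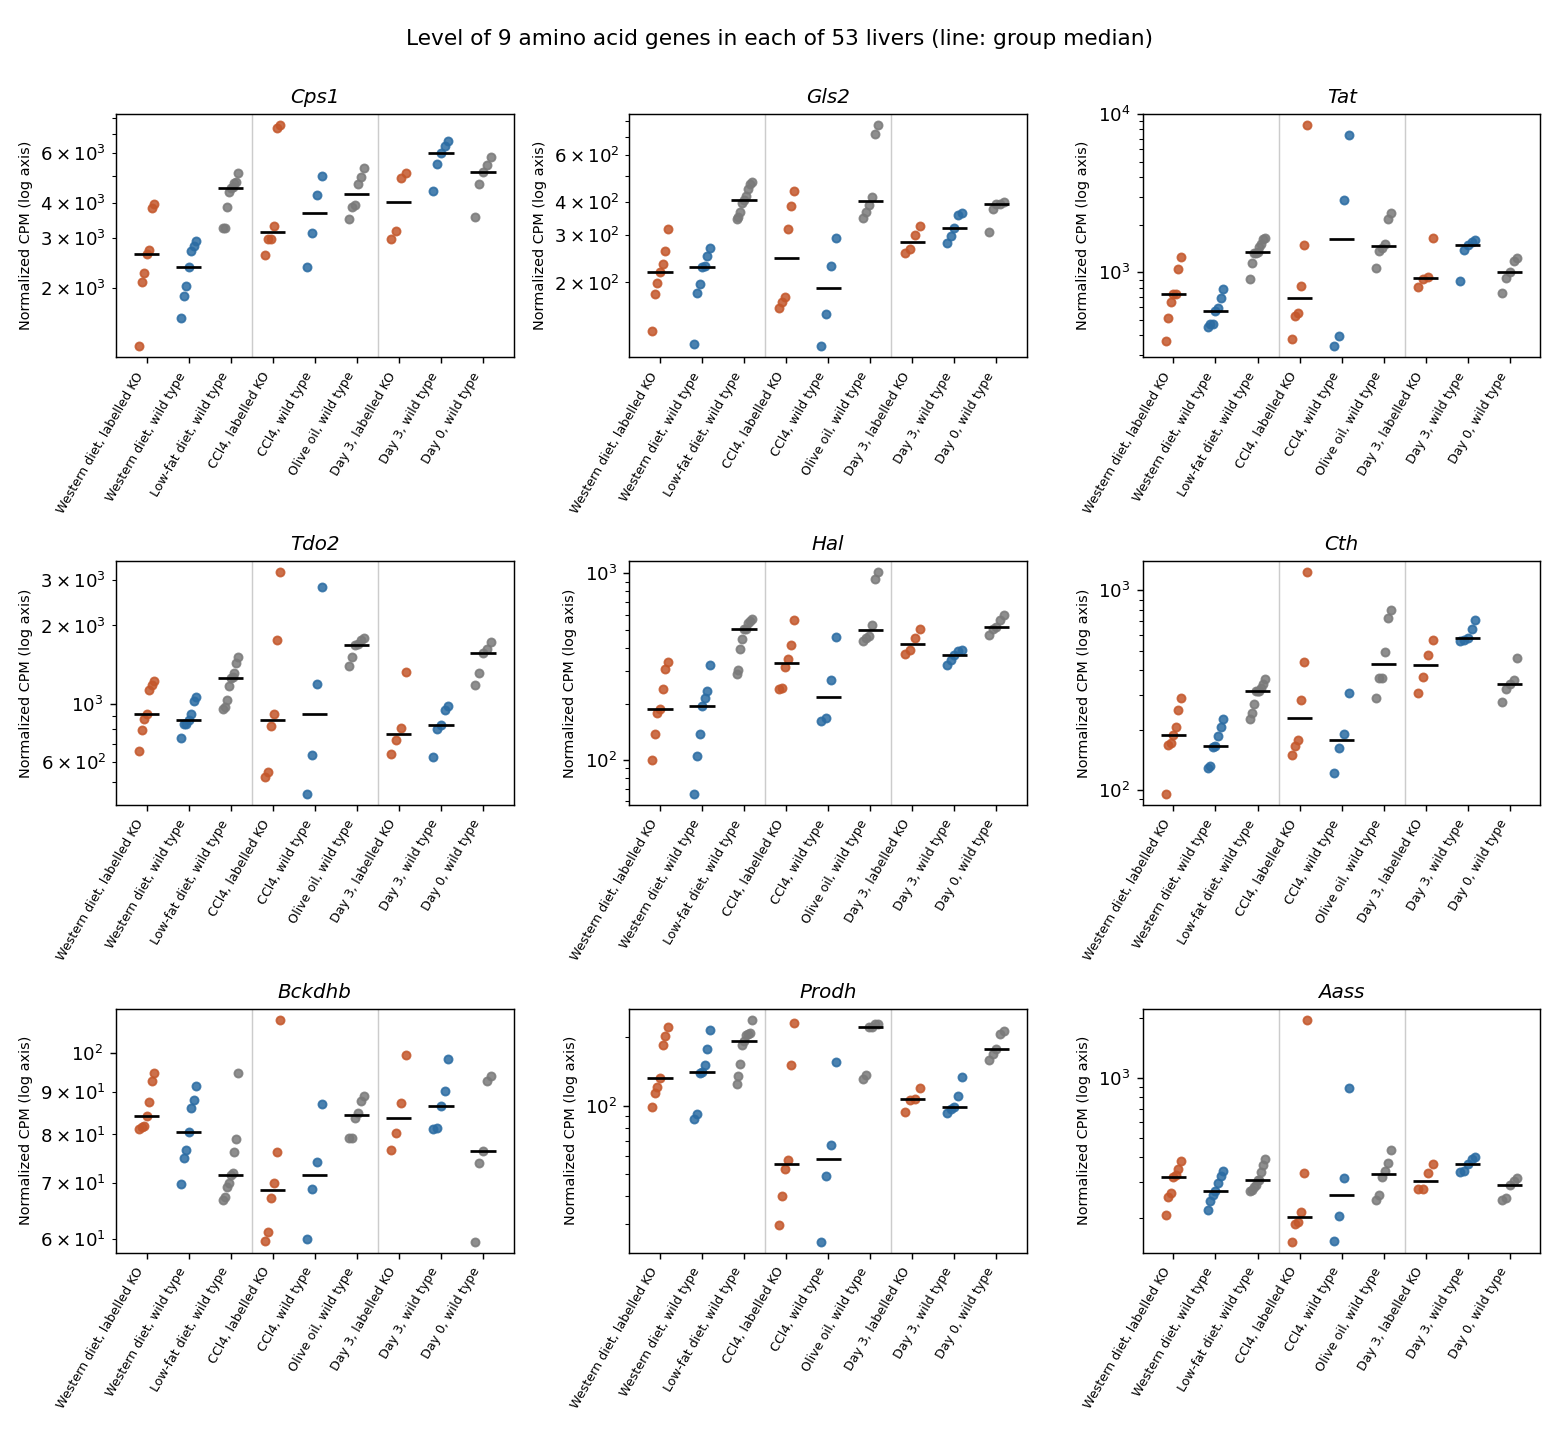
Normalized CPM of 9 of the genes in each of the 53 livers on a log axis, 1 point per liver, with a line at each group's median. Groups stand in 3 blocks with labelled knockout livers leftmost and controls rightmost, and the CCl4 livers spread far more widely than any others for Tat and Aass.

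At 3 days after CCl4 the amino acid genes fell in some branches and were spread widely between livers in others. Of the 50 genes 22 fell and 0 rose in wild-type livers by edgeR, against 8.87% of all 11663 genes tested that fell and 11.1% that rose. DESeq2 and limma voom called 0 genes higher too, and 1 was higher at an unadjusted p under 0.05. The median log2 fold change was -0.91, against 0.05 over all genes. All 4 CCl4 livers lay below all 6 olive oil livers for 25 of the 50, a separation seen in 9.02% of all genes. By branch, 7 of 10 aromatic, 6 of 10 branched-chain and propionate, 3 of 4 histidine, 2 of 6 methionine, 1 of 9 urea cycle and 0 of 4 serine and glycine genes fell.

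In the tryptophan pathway 3 of 5 genes fell after CCl4, and in phenylalanine and tyrosine breakdown 4 of 5. Haao, which makes the precursor of quinolinate, had 160.3, 182, 196 and 31.7 CPM in CCl4 livers 4, 5, 7 and 34, against 459 to 600.2 CPM with a median of 522 in the 6 olive oil livers, a log2 fold change of -1.89 (SE 0.40, adjusted p = 0.00429). Afmid, the formamidase that makes kynurenine, had 16.9, 16.8, 16.6 and 4.84 CPM after CCl4 and 28.6 to 53.1 CPM with a median of 42.6 after olive oil, a log2 fold change of -1.59 (SE 0.31, adjusted p = 0.00295). Kynu, the kynureninase, had 92.0, 94.2, 110.0 and 40.7 CPM after CCl4 and 163 to 261 CPM with a median of 210.4 after olive oil, a log2 fold change of -1.32 (SE 0.24, adjusted p = 0.0019). For all 3 the groups were apart, with liver 34 lowest. Part of the exon length of Afmid overlaps other genes, 46.6% of it. Kmo, the kynurenine monooxygenase, was not called, at 231, 379, 337 and 68.0 CPM after CCl4 and 259.7 to 397 CPM with a median of 343 after olive oil, a log2 fold change of -0.40 (SE 0.36, adjusted p = 0.462), and its groups overlapped.

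Hpd had 912, 470.0, 518 and 1057 CPM after CCl4 and 1771 to 2499 CPM with a median of 2074 after olive oil, a log2 fold change of -1.504 (SE 0.29, adjusted p = 0.00234). Hgd, the homogentisate dioxygenase that follows it, had 327, 309.8, 397 and 206 CPM after CCl4 and 670.2 to 914 CPM with a median of 684 after olive oil, a log2 fold change of -1.28 (SE 0.20, adjusted p = 0.000724). Qdpr, which regenerates the cofactor of phenylalanine hydroxylation, had 131, 169.6, 190.0 and 66.8 CPM after CCl4 and 269 to 558 CPM with a median of 419 after olive oil, a log2 fold change of -1.56 (SE 0.33, adjusted p = 0.00434). No CCl4 liver reached the olive oil range for these 3 genes.

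Branched-chain breakdown fell after CCl4 where it had changed little on Western diet. Hibadh, a dehydrogenase of valine breakdown, had 107, 163, 192 and 62.2 CPM after CCl4 and 302 to 384 CPM with a median of 347 after olive oil, a log2 fold change of -1.42 (SE 0.27, adjusted p = 0.00227). Ivd, Mccc1 and Mccc2 of the leucine pathway, Bckdha and the propionyl-CoA carboxylase subunit Pccb also fell, at log2 fold changes of -1.09, -1.06, -0.93, -1.11 and -1.20. The 6 that fell did not overlap between groups. Bckdhb again was not called, at 87.0, 68.9, 59.9995 and 74.1 CPM after CCl4 and 79.2 to 88.9 CPM with a median of 84.3 after olive oil.

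Hal had 268, 161, 167 and 454 CPM after CCl4, against 434 to 1015 CPM with a median of 494 after olive oil, a log2 fold change of -1.28 (SE 0.36, adjusted p = 0.0209). Liver 34 was inside the olive oil range. Gnmt had 869, 233, 319 and 952 CPM after CCl4 and 1028 to 2305 CPM with a median of 1699 after olive oil, a log2 fold change of -1.51 (SE 0.52, adjusted p = 0.0495) without overlap. Its call was lost in 8 of 10 fits that left out a liver. Gls2, the only urea cycle gene called, had 230.1, 116, 153 and 294 CPM after CCl4 and 349 to 776 CPM with a median of 404 after olive oil, a log2 fold change of -1.34 (SE 0.37, adjusted p = 0.0181) without overlap. The calls of Hal without CCl4 liver 5 or 7, at -1.12 and -1.13, and of Gls2 without liver 5, at -1.17, were also lost.

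A further set of enzymes differed between CCl4 livers by more than an order of magnitude, and none of them was called in the main fit. Mat1a had 8462, 618, 679.9 and 13622 CPM in CCl4 livers 4, 5, 7 and 34, against 2335 to 3806 CPM with a median of 3043 after olive oil. Livers 5 and 7 were below, and livers 4 and 34 above, every olive oil liver. Tat followed the same pattern, with 2853, 341, 395 and 7361 CPM after CCl4 and 1065 to 2370.1 CPM with a median of 1467 after olive oil. So did Sds, with 305, 14.8, 35.3 and 561 CPM after CCl4 and 97.4 to 283 CPM with a median of 197 after olive oil, and Got1, with 452, 70.9, 61.2 and 2290.3 CPM and 159 to 439 CPM with a median of 239.7. Their fitted log2 fold changes were 0.95 (SE 0.82, adjusted p = 0.441), 0.73, 0.19 and 1.40. Other fits called some of these genes, in opposite directions. Limma voom called Sds lower, at -2.35, while with the sequencing index as a term Tat and Mat1a were called higher, at 2.05 and 2.35. The fit with the index links CCl4 to olive oil livers only through wild-type liver 34 and labelled knockout livers 22 and 35.

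Aass had 314, 152, 203 and 889.6 CPM after CCl4 and 245 to 438 CPM with a median of 331 after olive oil, and Tdo2 had 1190.5, 451, 636 and 2801 CPM and 1399 to 1789 CPM with a median of 1689, each with liver 34 above the olive oil range and livers 5 and 7 below it. Liver 4 was within that range for Aass and below it for Tdo2. Cps1 varied less, with 4971, 2371, 3121 and 4279 CPM after CCl4 and 3499.5 to 5302 CPM with a median of 4290.4 after olive oil, a log2 fold change of -0.25 (SE 0.33, adjusted p = 0.637). Otc had the opposite outlying liver, with 94.1, 253, 293 and 18.6 CPM after CCl4 and 489 to 579 CPM with a median of 516 after olive oil. Its groups were apart, yet it missed the threshold at a log2 fold change of -1.68 (SE 0.59, adjusted p = 0.0533). Prodh and Gldc were not called, at log2 fold changes of -1.40 and -0.14.

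Among the CCl4 livers, wild-type liver 34 and labelled knockout liver 35 had genes on both sides of the olive oil range. In both, 10 of the 50 genes were above every olive oil liver (Asl, Arg1, Tat, Tdo2, Mat1a, Ahcy, Sds, Sdsl, Got1 and Aass) while 28 were below every olive oil liver. By comparison, CCl4 wild-type livers 5 and 7 had 0 genes above the olive oil range and 42 below it. Wild-type liver 4 had 8 above and 33 below, close to the 10 above and 33 below of liver 34. Mat1a, Tat, Sds and Got1 were above every olive oil liver in liver 4 too. These counts per liver, too, were made for the 50 genes only and have no share of all genes beside them. The summed level of dividing cell markers was 28.5 CPM in liver 35 and 20.6 CPM in liver 34, each the lowest of its group. That of the neutrophil markers was 98.6 CPM in liver 35 and 222 CPM in liver 34, each the highest of its group.

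Without livers 34 and 35, 31 of the 50 genes fell after CCl4, against 11.9% of all genes. Tdo2 and Prodh were among them at log2 fold changes of -1.11 and -2.06, and the values of Tat, Sds and Aass turned negative at -0.46, -0.77 and -0.56. The labelled sequencing index also differed between the groups. CCl4 wild-type livers had D503 in 3 livers and D505 in 1, and olive oil livers had D504 in 3 and D505 in 3. Within the olive oil group, 23 of the 50 genes were higher in all D505 than in all D504 livers, and 4 were lower. The same count was not made over all genes, so it does not show whether the difference is particular to the 50. Against D505 olive oil livers alone 20 of the 50 fell, with 3.03% of all genes, and against D504 livers alone 14 did, with 5.60% of all genes. Against the D504 livers, Hal, Gls2, Qdpr and Gnmt were not called, at -0.77, -0.90, -1.09 and -0.97. With the index as a term in the fit 27 fell and 8 rose, against 15.1% and 15.7% of all genes. Index and treatment cannot be told apart for D503, which only CCl4 livers carry. CCl4 and olive oil livers are thus linked in that fit only through wild-type liver 34 and labelled knockout livers 22 and 35. Its calls rest on those livers and are no independent check of the main fit. Tat, Mat1a and Aass were among those that rose in that fit, at 2.05, 2.35 and 1.40.

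Markers moved with CCl4 as well. All 8 markers of dividing cells rose, with a summed level of 20.6 to 602 CPM after CCl4 and 6.46 to 14.8 CPM after olive oil. Of 7 pericentral genes tested 5 fell, with a summed level of 737 to 1275 CPM after CCl4 and 5185 to 12415 CPM after olive oil, while 2 of the 8 periportal genes among the 50 fell. Of 8 macrophage markers 4 rose, with a summed level of 359 to 607 CPM after CCl4 and 166 to 497 CPM after olive oil, and of 8 stellate cell and fibroblast markers 4 rose, with 462 to 1169 CPM against 140.2 to 346 CPM. None of 7 hepatocyte markers was called, with 69707 to 127216 CPM after CCl4 and 98088 to 134465 CPM after olive oil. Their part in the changes of the amino acid genes was not tested.

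Of 34 further enzymes tested 16 fell and 0 rose after CCl4, and of 10 transporters 4 fell. Suox, the sulfite oxidase at the end of cysteine breakdown, was at 29.5 ± 7.83 CPM after CCl4 (mean ± SD, n = 4) and 138 ± 34.7 CPM after olive oil (n = 6), a log2 fold change of -2.22 (SE 0.26, adjusted p = 9.18e-05). Abat, which breaks down the amino acid GABA, Sardh, which oxidizes the sarcosine that Gnmt makes, and Aldh6a1 of the valine pathway had log2 fold changes of -1.42, -1.37 and -1.22, with adjusted p of 0.00017, 0.000219 and 0.000229.

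**Figure D3:**
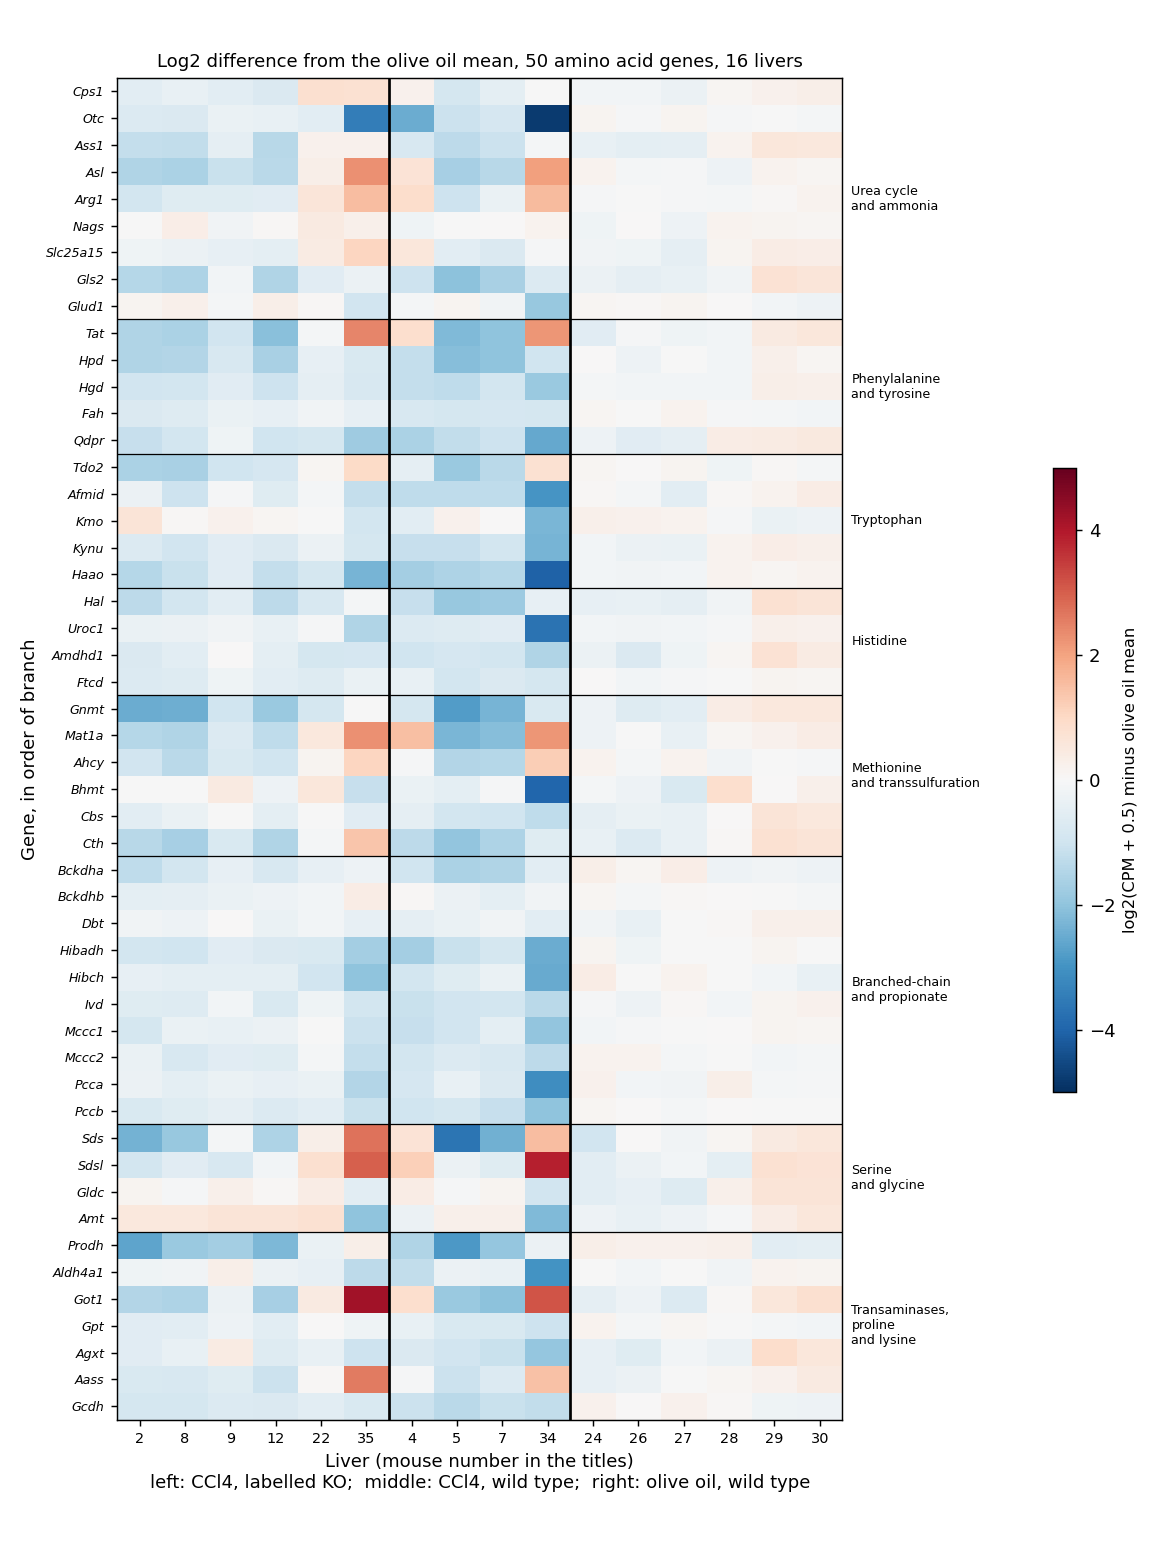
Log2 difference of each of the 50 genes from the mean of the olive oil livers, for each of the 16 livers of the toxin experiment, with labelled knockout CCl4 livers left, wild-type CCl4 livers in the middle and olive oil livers right. Livers 34 and 35 combine strong red in Tat, Mat1a, Sds, Sdsl, Got1 and Aass with blue in 28 other genes.

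At day 3 after partial hepatectomy the changes were small, and falls outnumbered rises among the called genes. Of the 50 genes 4 rose and 16 fell in wild-type livers, against 9.87% of all 11026 genes tested that rose and 7.50% that fell. The rises were thus below the share over all genes, and only the falls were above it. The median log2 fold change was -0.11, against -0.005 over all genes. At a required fold above 1.5, 0 of the 50 rose and 0 fell, against 3.06% and 0.880% of all genes. The day 3 livers were all below the day 0 livers for 13 of the 50, against 5.92% of all genes. All day 3 livers carry index D507 and the day 0 livers D505 or D506, so day and index cannot be told apart.

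The 4 genes that rose belong to 4 branches. Cth had 710.3, 556, 578, 641 and 566 CPM at day 3, in livers 12 to 16, against 457, 276, 341, 320.2 and 355 CPM at day 0, a log2 fold change of 0.80 (SE 0.15, adjusted p = 0.000664). Sdsl, a relative of serine dehydratase, had 18.7, 14.8, 15.7, 24.95 and 12.4 CPM at day 3 and 10.7, 7.91, 9.12, 13.4 and 7.05 CPM at day 0, a log2 fold change of 0.84 (SE 0.22, adjusted p = 0.00984). Aass, the synthase that opens lysine breakdown, had 371, 342, 338, 400.0 and 393 CPM at day 3 and 314, 245, 250.3, 290.4 and 306 CPM at day 0, a log2 fold change of 0.39 (SE 0.10, adjusted p = 0.0114). Of these 3, only Sdsl overlapped between the days. Uroc1, the urocanase that acts directly after Hal, rose by 0.31 on the log2 scale without overlap.

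Among the falls, 3 genes that open a pathway stood with the largest. Tdo2 had 625, 978, 832, 799.5 and 949 CPM at day 3 and 1318, 1180.4, 1622, 1566 and 1733 CPM at day 0, a log2 fold change of -0.83 (SE 0.17, adjusted p = 0.00158). Prodh, the proline dehydrogenase, had 92.4, 96.4, 134, 98.5 and 111 CPM at day 3 and 213, 158, 178, 168 and 206 CPM at day 0, a log2 fold change of -0.80 (SE 0.11, adjusted p = 4.9e-05). Hal had 342, 385, 389.7, 364 and 321 CPM at day 3 and 601, 468, 559, 504.5 and 513 CPM at day 0, a log2 fold change of -0.55 (SE 0.10, adjusted p = 0.000598). None of the 3 overlapped, so that Hal fell while the next enzyme of its pathway, Uroc1, rose.

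Pccb varied little within each day, with 126, 131, 124, 127 and 126 CPM at day 3 and 191, 179, 195, 179 and 194 CPM at day 0, a log2 fold change of -0.56 (SE 0.08, adjusted p = 4.58e-05). Bckdha, the alpha subunit of the branched-chain ketoacid dehydrogenase, had 161, 193, 216, 174 and 167 CPM at day 3 and 274, 274, 279, 244 and 267 CPM at day 0, a log2 fold change of -0.55 (SE 0.09, adjusted p = 0.000252). The groups were apart for both. Bckdhb was not called, at 0.14, and part of Bckdha's exon length, 61.7%, overlaps other genes.

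Gcdh, the glutaryl-CoA dehydrogenase of lysine and tryptophan breakdown, had 350.5, 403, 414, 428 and 387 CPM at day 3 and 594, 542, 553, 515 and 526 CPM at day 0, a log2 fold change of -0.46 (SE 0.09, adjusted p = 0.000811). Agxt fell by 0.44 on the log2 scale (SE 0.11, adjusted p = 0.00663), and neither overlapped. Afmid fell by 0.56 with an adjusted p of 0.0435, a call that was lost in 7 of 10 fits without a liver. In the urea cycle Otc alone fell, with 379.8, 467, 407, 424 and 405 CPM at day 3 and 537, 471, 524, 523 and 558 CPM at day 0. Cps1 was not called, with 6659, 6028, 4428, 5493 and 6369 CPM at day 3 and 4675, 3563, 5471, 5153 and 5823 CPM at day 0, a log2 fold change of 0.23 (SE 0.16, adjusted p = 0.372). Tat, Mat1a, Gldc and Sds were not called either, at log2 fold changes of 0.44, -0.06, -0.06 and -0.15. With the liver number as a block Tat was called higher, at 0.44.

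All 8 markers of dividing cells rose, with a summed level of 119.7 to 297 CPM at day 3 and 10.2 to 15.5 CPM at day 0, and 4 of 8 pericentral genes fell, with 3419.7 to 5521 CPM against 7067 to 9783 CPM. Of 8 stellate cell and fibroblast markers 5 rose, with 263 to 893 CPM at day 3 and 138 to 299 CPM at day 0. Of 7 hepatocyte markers 1 rose and 1 fell, with a summed level of 125357 to 147935 CPM at day 3 and 84546 to 102286 CPM at day 0. The part of these shifts in the amino acid genes was not tested. Of 34 further enzymes tested 14 fell and 1 rose. Aadat, an aminotransferase of the lysine and kynurenine pathways, was at 89.9 ± 13.4 CPM at day 3 and 214 ± 37.5 CPM at day 0 (mean ± SD, n = 5 each), a log2 fold change of -1.25 (SE 0.15, adjusted p = 6.12e-06). Hykk, which phosphorylates hydroxylysine, Cdo1, the cysteine dioxygenase, and Gcgr, the glucagon receptor, had log2 fold changes of -0.89, -0.93 and -0.60, with adjusted p of 2.44e-05, 0.00016 and 0.000321.

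Lysine breakdown gave a pair of genes that moved in opposite directions after hepatectomy, Aass up and Gcdh down, and their promoters, with that of Hal, are shown because each holds a match to the motif of C/EBP factors, which drive many hepatocyte genes. The sequences are those of RefSeq (GRCm38.p6), from 250 bases before to 50 bases after the transcription start, 5′ to 3′ on the gene's strand. Capitals mark the letters TTGCNNAA on either strand, at -150 in Hal, -155 and 36 in Gcdh and -22 in Aass, counted from the start.
Hal, chr10:93488518-93488817, plus strand: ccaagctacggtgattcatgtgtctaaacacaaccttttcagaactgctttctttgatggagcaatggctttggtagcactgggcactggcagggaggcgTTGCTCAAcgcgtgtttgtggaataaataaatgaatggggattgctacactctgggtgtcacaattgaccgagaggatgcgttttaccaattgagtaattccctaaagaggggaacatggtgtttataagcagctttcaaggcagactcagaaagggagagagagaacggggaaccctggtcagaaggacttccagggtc
Gcdh, chr8:84893872-84894171, minus strand: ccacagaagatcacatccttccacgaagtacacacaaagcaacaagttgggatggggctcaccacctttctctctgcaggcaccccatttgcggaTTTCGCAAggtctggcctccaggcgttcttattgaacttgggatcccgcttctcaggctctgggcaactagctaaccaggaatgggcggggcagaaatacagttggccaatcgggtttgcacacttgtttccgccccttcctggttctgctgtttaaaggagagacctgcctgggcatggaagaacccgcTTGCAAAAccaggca
Aass, chr6:23132937-23133236, minus strand: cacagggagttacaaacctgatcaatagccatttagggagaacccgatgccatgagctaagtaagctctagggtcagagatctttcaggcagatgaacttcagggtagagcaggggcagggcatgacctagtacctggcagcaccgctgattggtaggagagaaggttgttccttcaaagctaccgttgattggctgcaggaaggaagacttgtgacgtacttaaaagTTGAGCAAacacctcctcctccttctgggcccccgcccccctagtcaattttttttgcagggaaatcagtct
An entry was found for 39 of the 50 genes, and 5 of the 39 (12.8%) held such a match, against 12.2% of 27025 genes. The letters CAAAGTCCA (HNF4) and TGACGTNA (cAMP response element), and the palindrome of the glucocorticoid receptor, were in 0 of the 39, and in 0.555%, 3.36% and 1.54% of all genes. They were searched on both strands. These are matches of letters within one window, not sites of binding.

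**Figure D4:**
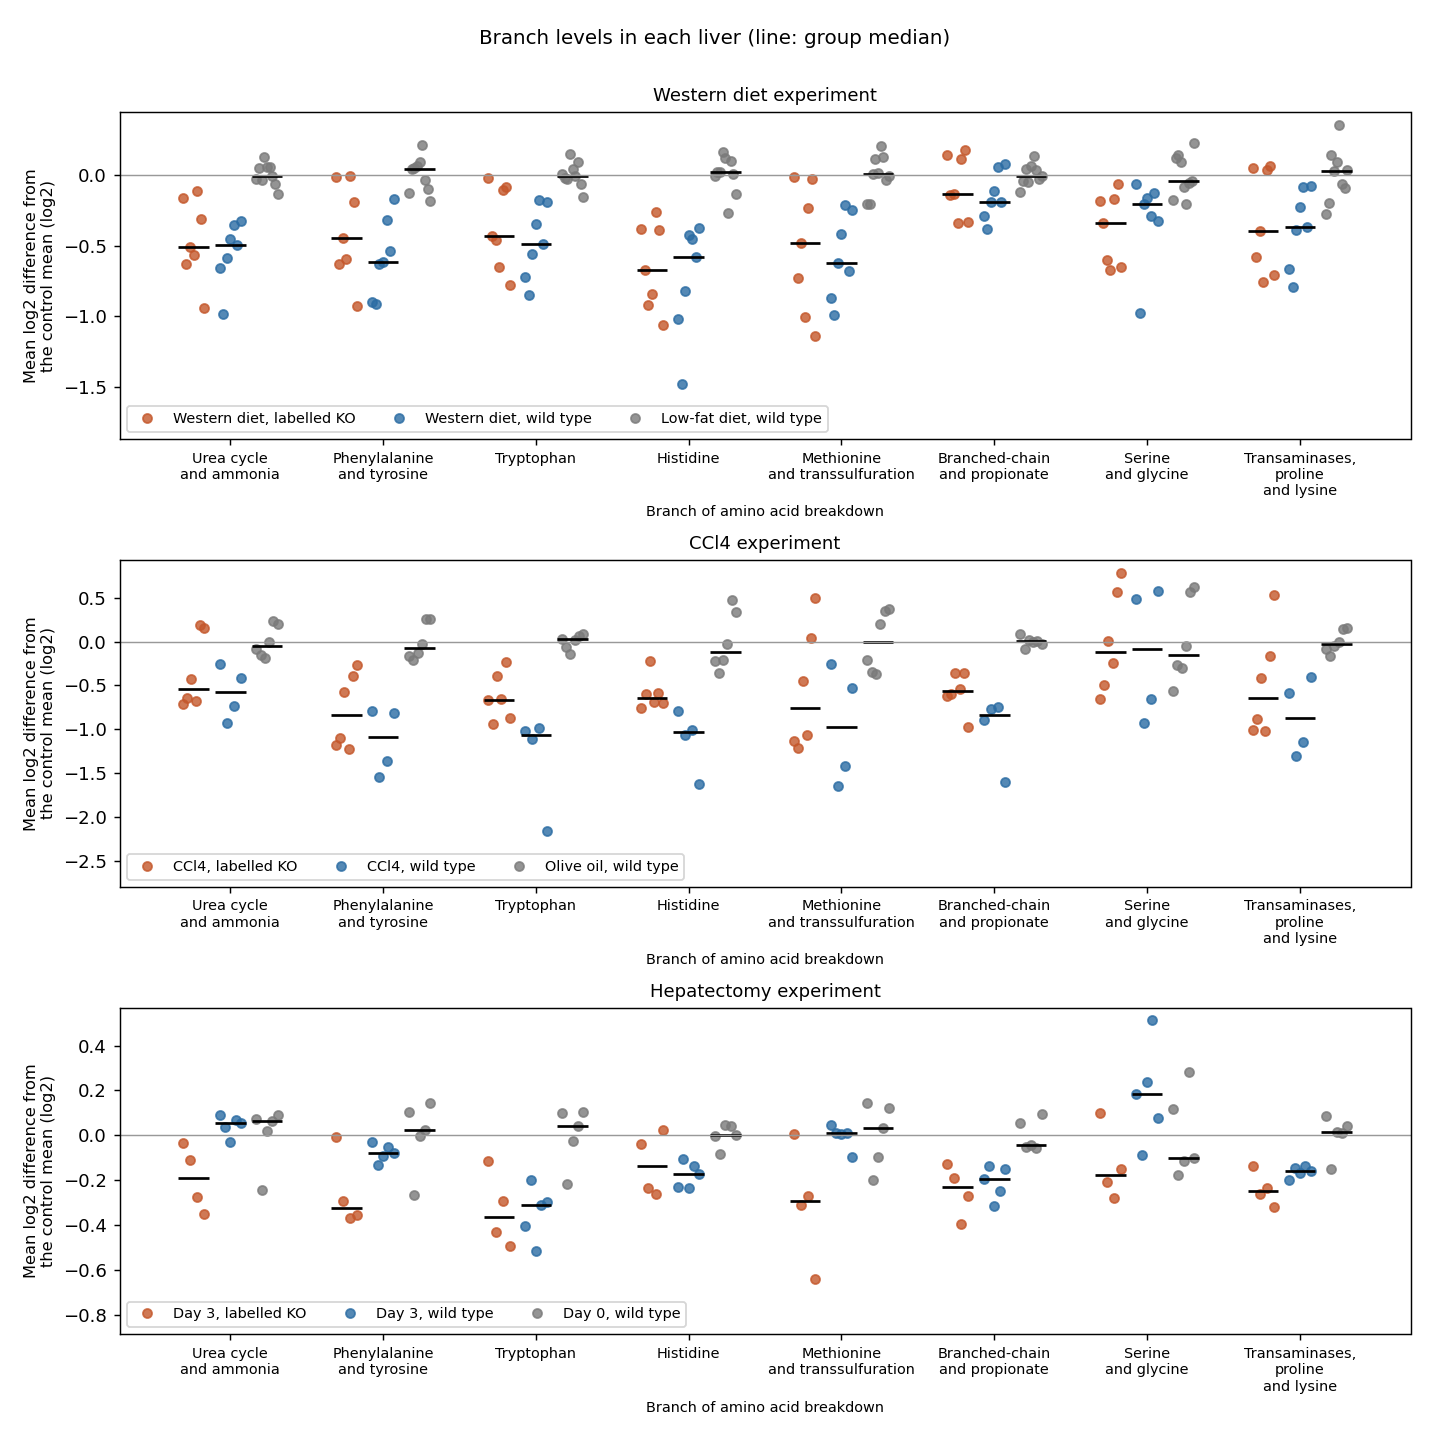
Mean log2 difference from the control mean over the genes of each of the 8 branches, 1 point per liver, for the 3 experiments, with a line at each group's median. On Western diet the branches except branched-chain and propionate sit mostly below 0, CCl4 livers spread furthest, and hepatectomy livers stay close to 0.

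The 3 wild-type comparisons share no livers, so their calls can be set side by side. Of the 50 genes 7 fell in all 3 (Hpd, Fah, Haao, Hal, Ftcd, Cbs and Agxt), or 14.0%, against 1.97% of the 10706 genes tested in all 3. By contrast 10, or 20.0%, were called in none, against 49.4% of all genes: Nags, Glud1, Mat1a, Bhmt, Bckdhb, Hibch, Pcca, Sds, Amt and Aldh4a1. The 14 genes that fell both on Western diet and after CCl4 were 48.3% of those that fell on Western diet and 63.6% of those that fell after CCl4. Over all genes tested in all 3 these shares were 22.3% and 46.2%. Uroc1 and Cth fell on Western diet and rose after hepatectomy. They were 6.9% of the 29 genes that fell on Western diet, against 3.74% over all genes, a small difference for 2 genes.

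Whether a gene responded differently to 2 challenges was tested in a joint fit of all 53 libraries. Between CCl4 and Western diet, 2 of the 50 genes were higher and 18 lower in the CCl4 response, against 8.37% and 7.72% of all 12646 genes tested. The lower ones included 8 of 10 branched-chain and propionate and 7 of 10 aromatic genes. The largest were Haao, with a difference of -1.41 (SE 0.32, adjusted p = 0.00166) on the log2 scale, Otc with -1.33 (SE 0.43, adjusted p = 0.0271) and Hibadh with -1.19 (SE 0.22, adjusted p = 0.000192). The difference of Otc was not called without CCl4 liver 4 or 34, at -1.14 and -0.96. Sdsl and Tat were the higher ones, at 2.27 (SE 0.71, adjusted p = 0.0225) and 1.94 (SE 0.69, adjusted p = 0.0455). Without livers 34 and 35 neither was called, at 0.34 and 0.76. Of 26 fits that left out a liver, Sdsl lost its call in 1, without CCl4 liver 34, and Tat in 16.

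Between hepatectomy and Western diet, 3 of the 50 genes were higher and 0 lower in the hepatectomy response by edgeR, against 2.00% and 1.53% of all genes. Cth differed by 1.59 (SE 0.43, adjusted p = 0.0285), Cps1 by 1.10 (SE 0.32, adjusted p = 0.0438) and Nags by 0.59 (SE 0.18, adjusted p = 0.0497). Cth lost its call without day 0 liver 13 or 15, at 1.5002 and 1.56, Cps1 in 19 and Nags in 24 of 26 fits that left out a liver. DESeq2 called 3 of the 50 higher, against 2.79% of all genes, and 0 lower. Limma voom called 12 higher and 1 lower, against 5.69% and 3.71% of all genes, and by edgeR 3 were lower at an unadjusted p under 0.05, against 8.34%. Tat was not called by edgeR at a difference of 1.68 (SE 0.69, adjusted p = 0.17). Its SE was 0.19 in the separate fit of the diet experiment and 0.19 in that of the hepatectomy experiment. The part of the CCl4 livers in the small number of calls was not tested.

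Between CCl4 and hepatectomy, 0 of the 50 genes were higher and 18 lower in the CCl4 response by edgeR, against 2.29% and 3.80% of all genes. None was higher at an unadjusted p under 0.05, or by DESeq2 or limma voom. The largest were Cth with a difference of -2.18 (SE 0.49, adjusted p = 0.00496), Haao with -1.46 (SE 0.35, adjusted p = 0.00877), Qdpr with -1.41 (SE 0.30, adjusted p = 0.0032), Uroc1 with -1.29 (SE 0.35, adjusted p = 0.0205) and Hgd with -1.25 (SE 0.20, adjusted p = 9.86e-05). Of the 18, 6 were aromatic and 5 branched-chain or propionate genes.

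**Figure D5:**
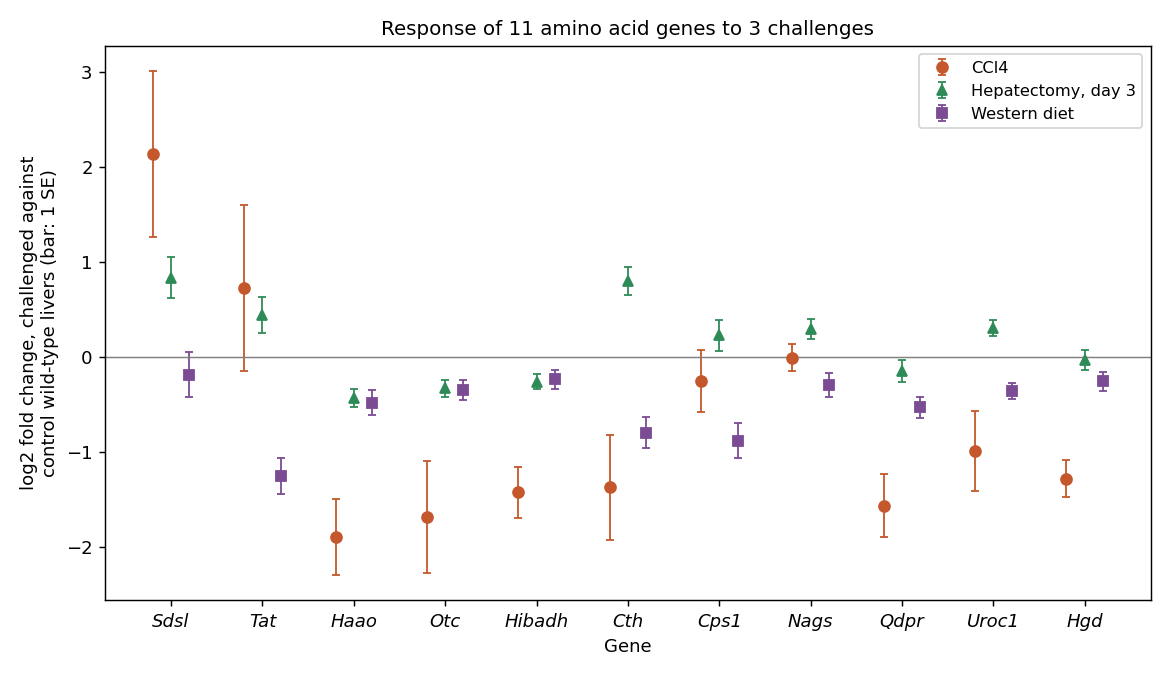
Log2 fold change of 11 amino acid genes in wild-type livers after CCl4, at day 3 of hepatectomy and on Western diet, each over its own control, with bars of 1 SE. Cth and Cps1 are above 0 after hepatectomy and below 0 on Western diet, and the bars of Sdsl and Tat after CCl4 are the longest.

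The knockout label was compared with wild type within each challenge, and none of the 50 genes was called in any of the 3 comparisons by edgeR. On Western diet 2 of all 13005 genes tested, 0.0154%, were called. The log2 fold changes of 45 of the 50 were positive, with a median of 0.09, and 2 of the 50 were higher and 0 lower at an unadjusted p under 0.05, against 3.16% and 2.73% of all genes. The median of the 50 was 0.36 among D501 livers but -0.10 among D502 livers, and 0.04 without labelled knockout liver 1. DESeq2 and limma voom called 0. The smallest p-values were those of Hibadh, Glud1 and Tat. Tat was at 367 to 1242 CPM with a median of 727 in the 7 labelled knockout livers and 449.7 to 785 CPM with a median of 573 in the 7 wild-type ones, with a log2 fold change of 0.39 (SE 0.20, adjusted p = 0.813). Hibadh and Glud1 had log2 fold changes of 0.23 (SE 0.10, adjusted p = 0.813) and 0.16 (SE 0.08, adjusted p = 0.813). The labelled knockout livers overlapped the wild-type livers for all 3, and labelled knockout livers 6 and 35 were below every low-fat liver for 44 of the 50 genes, against 7 in liver 1. The same counts were not made over all genes.

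After CCl4 1 of all 11663 genes tested, 0.00857%, was called between the labels. The log2 fold changes of 44 of the 50 were positive, with a median of 0.42, against -0.007 over all genes. The median of the 50 was 0.26 among D503 livers alone and 0.36 without livers 34 and 35. In the main fit 11 of the 50 were higher and 0 lower at an unadjusted p under 0.05. These shares were 3.36% and 2.80% of all genes. DESeq2 called 2 of the 50 higher, against 0.455% of the 3957 genes it gave an adjusted p, and limma voom called 0. Afmid was at 17.8 to 39.6 CPM with a median of 30.1 in the 6 labelled knockout livers, against 16.9, 16.8, 16.6 and 4.84 CPM in the 4 wild-type livers, which gave a log2 fold change of 1.07 (SE 0.31, adjusted p = 0.654). Every labelled knockout liver was above every wild-type liver, and the same held for Gcdh at a log2 fold change of 0.45 (SE 0.14, adjusted p = 0.676). Ivd had one of 0.56 (SE 0.17, adjusted p = 0.654), and its lowest labelled knockout liver, 35, overlapped the wild-type livers.

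At day 3 of hepatectomy 17 of all 11026 genes tested, 0.154%, were called between the labels. Of the 50 genes 33 had a negative log2 fold change, with a median of -0.06, and 10 were lower and 1 higher at an unadjusted p under 0.05, against 4.38% and 4.70% of all genes. DESeq2 and limma voom called 0. Got1 was at 239, 204, 154 and 128 CPM in labelled knockout livers 17 to 20, against 298, 239, 231, 293 and 283 CPM in wild-type livers 12 to 16, with a log2 fold change of -0.57 (SE 0.16, adjusted p = 0.196). It was called without labelled knockout liver 17, at -0.74. Cth had 564, 476, 370.0 and 307 CPM in labelled knockout and 710.3, 556, 578, 641 and 566 CPM in wild-type livers, which gave a log2 fold change of -0.51 (SE 0.16, adjusted p = 0.287). Sds had 106, 82.4, 67.2 and 80.6 CPM in labelled knockout and 137, 73.3, 154, 185 and 152 CPM in wild-type livers, which gave a log2 fold change of -0.74 (SE 0.23, adjusted p = 0.298). Only 1 labelled knockout liver, number 17, overlapped the wild-type range for Got1 and Cth. All 9 genes of the urea cycle branch had negative values, of which none passed the test.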

How the data were processed

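RNA-seq libraries of 53 livers were grouped by the labels. The deposited values are raw counts of reads for each Ensembl gene, not normalized by the authors. Per the submitters' processing notes, the tools were TopHat2 2.0.11 and HTSeq with build GRCm38; the counting annotation and strand setting are not given in the sources used here, so reads of overlapping genes cannot be told apart. Symbols, exon lengths and positions came from GENCODE vM21. The test was the two-sided quasi-likelihood test of edgeR 4.0.16 under R 4.3.3, after filterByExpr and TMM scaling, in 1 model per experiment over its 3 groups. It was adjusted over all genes tested and checked on simulated data. Differences of responses came from a joint fit of all libraries. Intervals and p-values cover the spread between these livers.

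The rule lists its members by symbol and applies no cut on a measured value, but the members and lists were chosen with earlier results of these data known. The text names, per wild-type challenge, the 10 called members with the largest change, 10 fixed members and up to 4 other genes, of which 1 is not reported here; per label comparison the 3 smallest p; and per difference the 5 largest called. Members added for context fall outside that rule. Alternatives were other scalings and filters, DESeq2 1.42.0, limma 3.58.1 voom, a robust fit, a fold threshold, 2-group fits, the sequencing index, libraries left out and a replicate block. After the data were seen, the olive oil livers of each index and the differences without livers 34 and 35 were added. Promoters are from RefSeq (GRCm38.p6), and near-identical copies were sought with BLAST 2.17.0. No 2 libraries of a group agreed within counting error.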

Additional observations from a re-analysis of the deposited data

Results flagged for a closer look

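Of 159 combinations of a named gene and a group of 4 to 10 livers, 13 held a liver far from the rest by Dixon's criterion, which chance alone meets in about 1 in 20. Labelled knockout liver 35 after CCl4 accounted for 5 of them, with 8587 CPM of Tat, 14527 CPM of Mat1a, 109.6 CPM of Bckdhb, 1242 CPM of Sds and 1948 CPM of Aass, each the highest of its 6 livers. Wild-type liver 34 after CCl4 was the lowest of 4 for Afmid, at 4.84 CPM. Labelled knockout liver 17 at day 3 of hepatectomy was the highest of 4 for Tat, at 1659 CPM, and for Gldc, at 303.0 CPM. Gldc was also high in wild-type liver 16 at day 3, at 259.8 CPM, and low in wild-type liver 14 at day 0, at 224.1 CPM. On Western diet, wild-type liver 14 was low for Sds, at 28.9 CPM. On low-fat diet, liver 21 was high for Got1, at 320.6 CPM, and for Bckdhb, at 94.8 CPM.

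The remaining values come from the tested differences between the responses of wild-type livers to 2 challenges. In CCl4 against Western diet these were 2.27 for Sdsl, 1.94 for Tat, -1.41 for Haao, -1.33 for Otc and -1.19 for Hibadh on the log2 scale. In hepatectomy against Western diet they were 1.59 for Cth, 1.10 for Cps1 and 0.59 for Nags. In CCl4 against hepatectomy they were -2.18 for Cth, -1.46 for Haao, -1.41 for Qdpr, -1.29 for Uroc1 and -1.25 for Hgd.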

How the results depend on the processing

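Library totals were lower in the toxin and hepatectomy experiments than in the diet experiment, and the CCl4 comparison had 4 wild-type livers. Genes higher on Western diet numbered 1 with unscaled totals and 1 with upper quartile scaling. Over all 13005 genes tested these settings called 4115 and 3001 higher. Genes lower on it numbered 3 above a fold of 1.5 and 17 among D502 livers, where Sds turned to 0.11 and, between the labels, Hibadh to -0.090 and Tat to -0.22. After CCl4 the higher genes numbered 1 with unscaled totals, against 2470 of all 11663, while Bckdhb turned to 0.011 and Gldc to 0.067. With the index as a term 8 were higher, against 1835 of all 11663, while Cps1 turned to 0.50, Tdo2 to 0.71 and Bckdhb to 0.049. The lower genes numbered 10 above a fold of 1.5, with 235 of all 11663. They numbered 14 against D504 olive oil livers, with 662 of all 11827, while Gldc turned to 0.48. Against D505 livers Sds turned to -0.12. With limma voom Tat turned to -1.41, Mat1a to -1.39, Gldc to 0.076, Sds to -2.35 and Aass to -0.63, of which Sds alone was called. Without livers 34 and 35 Tat turned to -0.46, Gldc to 0.067, Sds to -0.77 and Aass to -0.56. With unscaled totals the median of all genes was 0.30 after CCl4, against 0.05 in the main fit. Between the CCl4 labels it was -0.11, against -0.007 in the main fit. After hepatectomy 0 genes were higher and 0 lower above a fold of 1.5. Between labels, DESeq2 called 2 genes higher after CCl4, and the test with no filter called 2 lower after hepatectomy. Over all genes these counts were 18 of 3957 and 116 of 20684. For CCl4 against Western diet, voom called 1 gene higher, with Sdsl at -0.13 and Tat at -0.25. Without livers 34 and 35, 0 were called higher. Over all genes these counts were 1256 of 12646 and 1066 of 12961. For hepatectomy against Western diet, voom called 12 higher and 1 lower. The cause of these shifts was not tested.

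With single livers left out, genes lower numbered 25 to 35 on Western diet, 20 to 23 after CCl4 and 12 to 16 after hepatectomy, and genes higher 0 to 1, 0 to 0 and 4 to 5. The lower genes numbered 0 to 1 between the labels after hepatectomy, where 1 came without labelled knockout liver 17. CCl4 against Western diet gave 0 to 5 higher (5 without CCl4 wild-type liver 5) and 14 to 19 lower, hepatectomy against Western diet 0 to 3 higher, and CCl4 against hepatectomy 14 to 18 lower. Log2 fold changes after CCl4 ran from -0.56 to 0.48 for Aass, -0.31 to 0.070 for Gldc, -0.76 to 0.56 for Sds and -0.46 to 1.07 for Tat, the negative ends of Aass, Sds and Tat coming without liver 34. For Sds after hepatectomy they ran from -0.29 to 0.050.

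With a replicate block for the liver number after hepatectomy, 6 amino acid genes were higher and 13 lower. Over all 10428 genes tested in that fit, 972 were higher and 738 lower. With only livers 12, 15 and 16 in the block fit, 3 amino acid genes were higher and 11 lower. Over all 10722 genes tested there, 755 were higher and 522 lower. Same-numbered livers correlated at -0.02 to 0.09, and 3 of 5 matched their own number best. These were livers 12, 15 and 16, whose labels are the same on both days. Livers 13 and 14 carry an added N in the label at day 3 only, and each matched the other best. All correlations were below the 0.1 set for pairing, so the main fit did not pair livers. Whether same-labelled livers come from the same animal was not settled. Tat was called with the block, at 0.44. No paired analysis was possible for the other comparisons because they share fewer than 2 numbers.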

Other observations

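Among the olive oil livers, those with sequencing index D505 and those with D504 differed in several amino acid genes. Cth was at 494.5, 794.5 and 729.8 CPM in D505 livers 28, 29 and 30 and at 364.8, 290.8 and 365.4 CPM in D504 livers 24, 26 and 27. Gls2 was at 416.8, 775.6 and 717.4 CPM in the D505 livers and at 390.3, 349.1 and 365.4 CPM in the D504 livers, so that liver 28 was close to the D504 livers for it. After CCl4, genes of the urea cycle lay on opposite sides of the olive oil livers within 1 liver. Liver 34 had 4350 CPM of Arg1, above them, and 18.6 CPM of Otc, below them, and liver 35 had 4247 CPM of Arg1 and 47.6 CPM of Otc.

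Serine dehydratase and its relative lie side by side on chromosome 5, Sdsl at chr5:120458186-120472810 on the minus strand and Sds at chr5:120476526-120483932 on the plus strand. At day 3 of hepatectomy Sdsl was called higher and Sds was not called, with log2 fold changes of 0.84 (SE 0.22, adjusted p = 0.00984) and -0.15 (SE 0.21, adjusted p = 0.702). Hal and Amdhd1 also neighbour each other, at chr10:93488768-93519304 and chr10:93523338-93540033. Both fell on Western diet and after CCl4, and at day 3 of hepatectomy Hal fell while Amdhd1, at 259.6, 211, 223, 229 and 228 CPM, against 228, 229, 258, 256 and 230.0 CPM at day 0, was not called.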
